A study of Homo sapiens with 16 samples.

Results

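The genes described here are 5 long noncoding RNAs that are often discussed in connection with low oxygen or with RNA kept in the nucleus: MIR210HG, NEAT1, MALAT1, H19 and UCA1. They were taken by name from a table of 23669 genes, all 5 were present, and all 5 were among the 15520 genes that passed the filter on low counts. The table comes from HCT116, an established human colorectal carcinoma cell line, grown in normoxia (21% oxygen) or for 24 h in hypoxia (1% oxygen). Poly(A) RNA was sequenced from 4 derivatives of the line, with 2 independent biological replicates per line and oxygen level, which makes 8 groups and 16 libraries. shNT cells stably express a non-targeting shRNA. shTIP60 cells stably express an shRNA against TIP60, a histone acetyltransferase encoded by KAT5, and shCDK8 cells carry one against CDK8, the kinase that associates with Mediator. The line labelled HIF1A-null (HIF1A-/-) is knocked out for the gene of the HIF1 alpha subunit, and the labels name no shRNA for it. Each alteration was studied in 1 line, so an effect of the target and an effect of that line cannot be told apart.

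Hypoxia-inducible factors are transcription factors whose alpha subunits are destroyed when oxygen is plentiful and accumulate when it is scarce, and they bind short DNA elements with the core ACGTG or GCGTG. MIR210HG is the host transcript of miR-210, a microRNA known for its induction by hypoxia. NEAT1 is the scaffold of paraspeckles, nuclear bodies that hold RNA-binding proteins, and MALAT1 is enriched in nuclear speckles, where splicing factors are stored. H19 is an imprinted transcript, normally made from the maternal copy, that lies beside the growth factor gene IGF2 and carries miR-675. UCA1 was named for urothelial carcinoma. H19 and UCA1 are described largely as cytoplasmic, and the whole-cell RNA used here does not measure where a transcript resides. MALAT1 and the long form of NEAT1 also lack a conventional poly(A) tail, so poly(A) selection may have captured only part of either RNA. Counts per gene do not separate the short and long forms of NEAT1.

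4 of the genes lie on chromosome 11 and 1 on chromosome 19 (build GRCh37, GENCODE release 44 lifted to that build). MIR210HG spans chr11:565657-568457 on the minus strand with 2 exons in its canonical transcript, and MIR210 (chr11:568089-568198) lies in its intron. NEAT1 spans chr11:65190245-65213011 and MALAT1 chr11:65265111-65275544, both on the plus strand and each with 1 exon in the canonical transcript, and 52.1 kb separates them. H19 spans chr11:2016396-2025782 on the minus strand and UCA1 chr19:15939016-15947138 on the plus strand, each with 5 exons in its canonical transcript. TALAM1 and ENSG00000270117 overlap MALAT1 on the opposite strand, and LINC01764 and ENSG00000288618 overlap UCA1 in the same way. None of these has a row in the count table, and the strand setting of the counting is not given in the sources used here, so their reads cannot be told apart from those of MALAT1 and UCA1.

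RefSeq promoter windows were found for 3 of the 5 genes, MIR210HG, MALAT1 and H19, and are shown to mark the core motifs named above. Each window runs from 250 bases before to 50 bases after a start site, in build GRCh38.p14. The capitals mark every ACGTG or GCGTG on the gene's own strand and, for matches on the other strand, CACGT or CACGC. The first window belongs to MIR210HG (chr11:568408-568707, minus strand), the next to H19 (chr11:2001217-2001516, minus strand) and the others to separate MALAT1 start sites (chr11:65497488-65497787 and chr11:65498795-65499094, plus strand).
MIR210HG: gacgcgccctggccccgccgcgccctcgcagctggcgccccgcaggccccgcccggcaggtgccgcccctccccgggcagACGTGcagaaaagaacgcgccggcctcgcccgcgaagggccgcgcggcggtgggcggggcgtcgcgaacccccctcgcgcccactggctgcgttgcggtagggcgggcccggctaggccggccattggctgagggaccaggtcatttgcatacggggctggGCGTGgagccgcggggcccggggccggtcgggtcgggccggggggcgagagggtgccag
H19: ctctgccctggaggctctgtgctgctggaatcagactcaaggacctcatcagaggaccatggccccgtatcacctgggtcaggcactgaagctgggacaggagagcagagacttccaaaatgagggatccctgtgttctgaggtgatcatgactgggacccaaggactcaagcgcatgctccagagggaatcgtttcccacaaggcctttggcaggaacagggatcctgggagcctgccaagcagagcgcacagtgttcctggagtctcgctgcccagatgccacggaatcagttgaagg
MALAT1 first start: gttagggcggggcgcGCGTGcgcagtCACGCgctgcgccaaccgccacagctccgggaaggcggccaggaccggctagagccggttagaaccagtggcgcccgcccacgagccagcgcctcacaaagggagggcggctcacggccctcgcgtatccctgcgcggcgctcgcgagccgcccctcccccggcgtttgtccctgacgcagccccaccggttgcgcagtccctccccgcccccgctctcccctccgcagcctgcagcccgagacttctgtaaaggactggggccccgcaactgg
MALAT1 second start: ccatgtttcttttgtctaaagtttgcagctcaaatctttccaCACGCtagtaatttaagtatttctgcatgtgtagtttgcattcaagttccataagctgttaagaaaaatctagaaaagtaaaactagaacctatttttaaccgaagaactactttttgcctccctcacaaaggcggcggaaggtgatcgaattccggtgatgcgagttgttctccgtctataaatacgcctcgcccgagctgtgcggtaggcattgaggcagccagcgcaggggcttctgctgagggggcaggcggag
The MIR210HG window held ACGTG with its first base at position -170 from the start site and GCGTG at -9. The first MALAT1 window held GCGTG at -235 and, on the other strand, at -224, and the second held it on the other strand at -208. The H19 window held neither motif, but it covers 1 start site of a gene with 31 annotated transcripts. No other H19 start was examined. No 2 of these matches overlapped, although ACGTG and CACGT can share letters. Among 35116 promoter windows of the same length, 21.4% held ACGTG, 36.5% held GCGTG and 48.4% held either, so a match on its own is common. The GC content of the windows was 80.0% for MIR210HG, 57.7% for H19 and 73.7% and 46.0% for MALAT1.

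The 2 host transcripts also carry microRNAs, shown because their seeds (bases 2 to 8, in capitals) set which mRNAs they pair with.
hsa-miR-210-3p: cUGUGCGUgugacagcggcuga
hsa-miR-210-5p: aGCCCCUGcccaccgcacacug
hsa-miR-675-5p: uGGUGCGGagagggcccacagug
hsa-miR-675-3p: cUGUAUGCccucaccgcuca
No 2 of these 4 seeds are the same. The mature forms are far shorter than an mRNA, and the libraries measured their precursors and hosts rather than the microRNAs themselves.

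Total counts ran from 26620086 to 39401494 per library, and 16824 to 17817 genes had at least 1 count. Levels are given in CPM, counts divided by a library size that trimmed mean of M-values (TMM) factors adjust. The factors of the normoxic libraries (1.01 to 1.12) all exceeded those of the hypoxic libraries (0.862 to 0.965). The libraries of a group are called A and B by the order of the numbers in their column names, and paired values are given in that order. KAT5 fell by 2.12 on the log2 scale in shTIP60 against shNT in normoxia, and CDK8 fell by 2.05 in shCDK8. HIF1A stood at 13.6 CPM in the normoxic line labelled HIF1A-null against 107 CPM in shNT, but at 48.9 against 65.9 CPM in hypoxia. The labels do not give the part deleted, so counts over the whole gene cannot check that label in hypoxia. Of 7 epithelial and colon carcinoma markers, 6 were at 5 CPM or more in every library, and the other, VIL1, stayed at or below 0.339 CPM. The summed level of 5 fibroblast markers was 21.6 to 40.3 CPM in normoxia and 43.5 to 82.0 CPM in hypoxia. Nearly all of it was COL1A1 (21.5 to 81.9 CPM), while COL1A2 and COL3A1 stayed at or below 0.184 CPM and LUM was at 0. The part of these markers in the results was not tested. In bulk RNA, fewer cells of a type and less RNA per cell cannot be told apart.

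The first question was how hypoxia changed the 5 RNAs in each line. 3 of them, MIR210HG, MALAT1 and H19, rose in every line, whereas UCA1 rose in the 3 shRNA lines and NEAT1 in shTIP60 and shCDK8. A gene is called here when edgeR's quasi-likelihood test gives it a p under 0.05 after Benjamini-Hochberg adjustment over all tested genes. In shNT 4 of the 5 were called higher, against 20.7% of all genes called higher and 40.7% called in either direction. All 5 were called higher in shTIP60 (19.4% of all genes higher, 39.2% in either direction) and in shCDK8 (13.8% and 24.8%). In HIF1A-null 3 were called higher (18.9% and 38%). For the gene lists below, the shares of all genes called lower were 20% in shNT, 19.8% in shTIP60, 11% in shCDK8 and 19.1% in HIF1A-null. 6.64% of all genes were called higher in every line, as MIR210HG, MALAT1 and H19 were. These same 3 also had both hypoxic libraries above both normoxic libraries in every line, which held for 14.2% of all genes. The median log2 fold change of the 5 genes was 1.53 in shNT, 1.21 in shTIP60, 1.07 in shCDK8 and 1.24 in HIF1A-null, while the median of all genes lay between -0.016 and -0.00067.

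**Figure D1:**
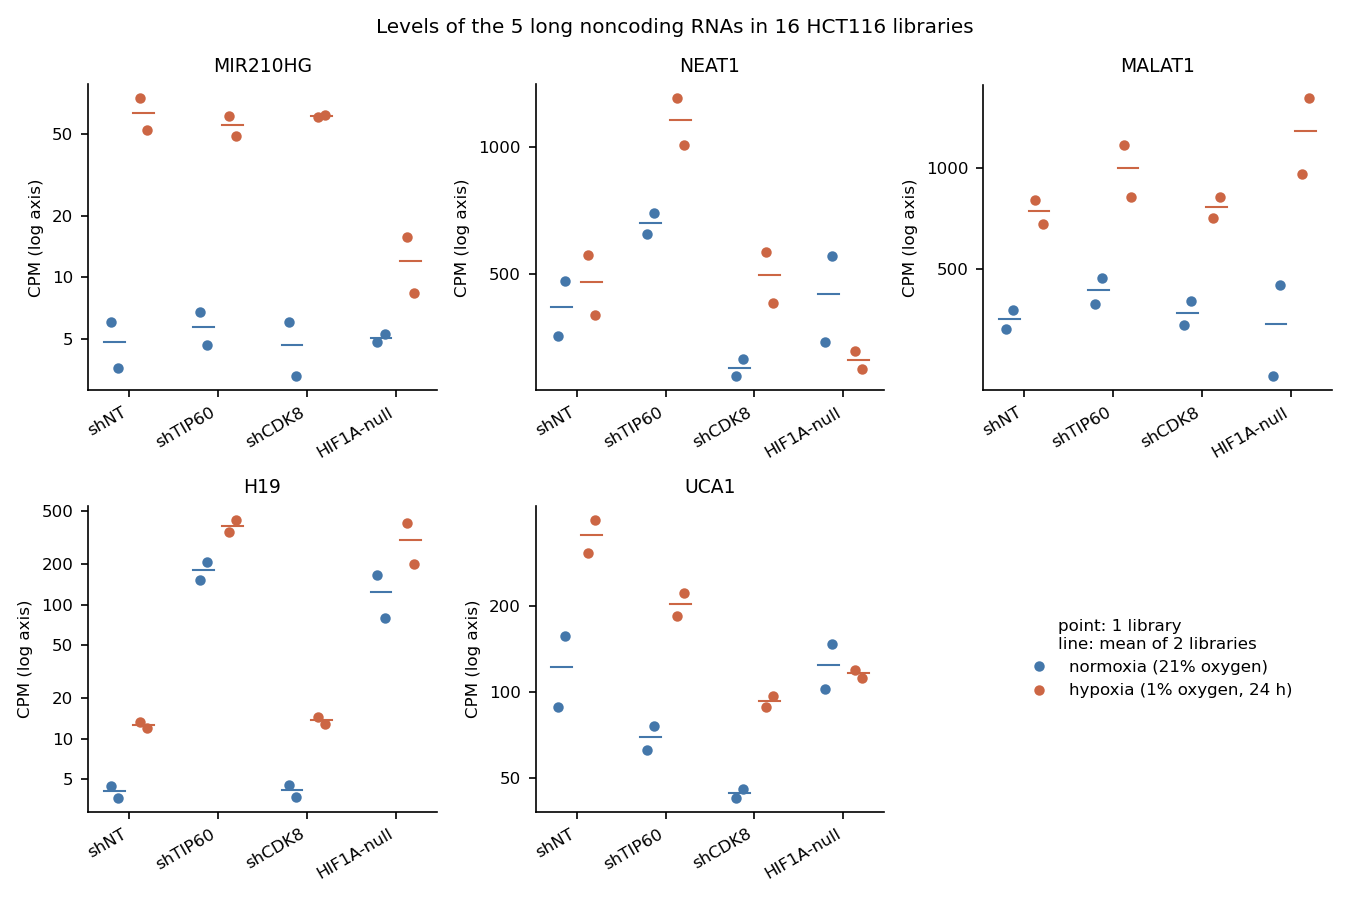
Level of each long noncoding RNA in CPM (vertical axis, logarithmic) by line, with normoxic libraries in blue and hypoxic libraries in orange. Points are single libraries and horizontal lines are means of 2 libraries. MIR210HG in HIF1A-null reaches 12.1 CPM in hypoxia against 55.0 to 63.3 CPM in the shRNA lines, and H19 in shTIP60 and HIF1A-null is at 79.9 CPM or more in every library.

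**Figure D2:**
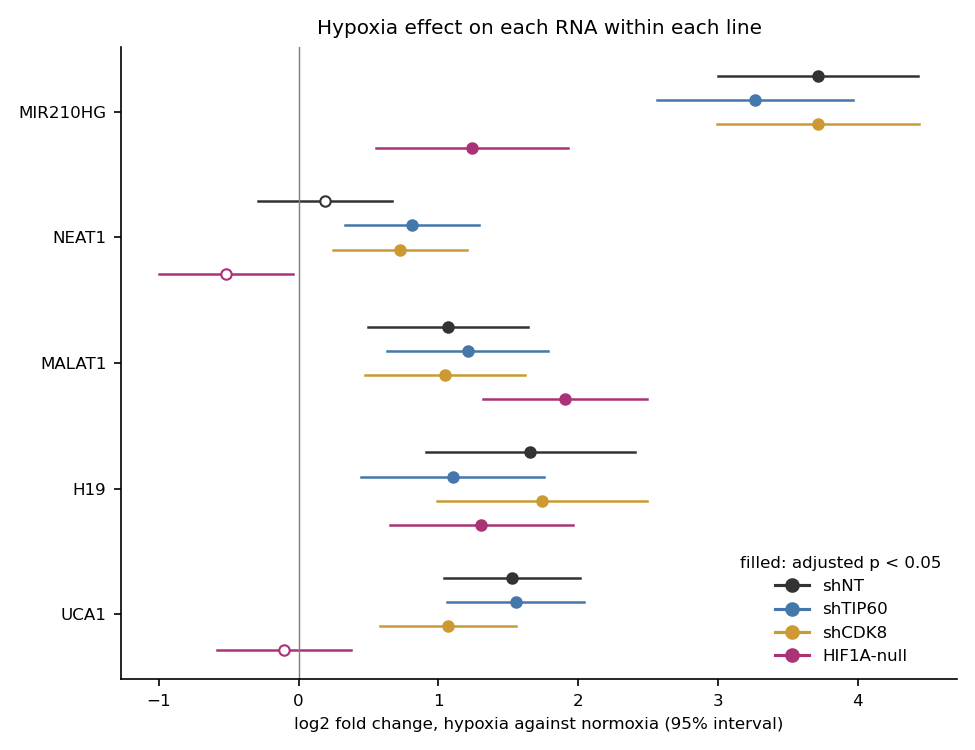
Log2 fold change of hypoxia against normoxia (horizontal axis) for each RNA in each line, with 95% intervals from edgeR's quasi-likelihood fit. Filled points passed an adjusted p of 0.05. MIR210HG has the largest values (3.26 to 3.72 in the shRNA lines), and NEAT1 and UCA1 in HIF1A-null are the only points below 0.

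MIR210HG, the miR-210 host, had the largest hypoxia fold change of the 5 in each shRNA line. In shNT it stood at 6.10 and 3.61 CPM in normoxia (mean 4.85 ± 1.76 SD, n = 2) and at 74.5 and 52.0 CPM in hypoxia (63.3 ± 15.9). In shTIP60 the levels were 6.80 and 4.68 CPM (5.74 ± 1.5004) and then 61.2 and 48.9 CPM (55.0 ± 8.70). In shCDK8 they were 6.09 and 3.30 CPM (4.70 ± 1.98) and then 60.8 and 61.6 CPM (61.2 ± 0.586). All hypoxic libraries of these lines lay far above all normoxic ones, and the 3 lines overlapped one another at either oxygen level. The HIF1A-null line had 4.87 and 5.31 CPM in normoxia (5.09 ± 0.311) and 15.8 and 8.38 CPM in hypoxia (12.1 ± 5.25). Its hypoxic libraries exceeded its own normoxic ones but stayed below every hypoxic library of the other lines. The group means spanned 13.5-fold, and 5 of the 7 neighbouring pairs of groups in the order of levels overlapped.

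The log2 fold change of MIR210HG in hypoxia was 3.72 ± 0.34 (SE) in shNT (13.1-fold, adjusted p = 7.47e-07), 3.26 ± 0.33 in shTIP60 (9.60-fold, 2.35e-06) and 3.72 ± 0.34 in shCDK8 (13.1-fold, 1.60e-06). It was 1.24 ± 0.32 in HIF1A-null (2.37-fold, adjusted p = 0.00676), and without hypoxic library A that value was 0.72 with an adjusted p of 0.118. The response of HIF1A-null was smaller than that of shNT by 2.47 ± 0.45 on the log2 scale (a difference of -2.47, adjusted p = 0.00198). In hypoxia MIR210HG was 5.25-fold lower in HIF1A-null than in shNT (log2 -2.39 ± 0.31, adjusted p = 2.22e-05). In normoxia the corresponding difference was 0.08, with a 95% interval from -0.62 to 0.79. The response difference was 0.00 in shCDK8 (95% interval -1.13 to 1.13) and -0.45 in shTIP60 (-1.39 to 0.49), and neither was called. These intervals do not show that the lines respond alike.

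MIR210 itself, the hairpin inside the intron, was barely counted in poly(A) RNA. Its counts in normoxia were 1 and 0 in shNT, 0 and 0 in shTIP60, 0 and 0 in shCDK8, and 0 and 4 in HIF1A-null. In hypoxia they were 18 and 8, then 25 and 21, then 28 and 25, and 1 and 2 in HIF1A-null. Both hypoxic libraries thus exceeded both normoxic ones in the shRNA lines, while the HIF1A-null libraries overlapped. No fold is given, because the normoxic counts lie at or near the floor of 3 counts (0.0716 to 0.112 CPM), and reads of the hairpin cannot be told apart from reads of the unspliced host.

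Of 14 mRNAs reported as miR-210 targets, 13 were tested. In shNT 1 rose and 5 fell with hypoxia, and the median log2 fold change was -0.43. The counts were 2 and 6 in shTIP60 (median -0.41), 1 and 4 in shCDK8 (-0.30) and 2 and 4 in HIF1A-null (0.14). The 6 of 13 called in shNT and in HIF1A-null are near the shares of all genes called there, 40.7% and 38%. Of all genes 39.2% were called in shTIP60 and 24.8% in shCDK8. By direction, 20.7% of all genes rose and 20% fell in shNT, and 19.4% and 19.8% in shTIP60. In shCDK8 13.8% of all genes rose and 11% fell, and in HIF1A-null 18.9% and 19.1%. EFNA3, a membrane-bound ephrin ligand, rose in all 4 lines, by 1.93 ± 0.15 in shNT, 1.68 in shTIP60, 1.81 in shCDK8 and 0.79 in HIF1A-null on the log2 scale. CASP8AP2, a caspase-8 associated protein, fell in all 4 lines (-1.44, -1.28, -0.64 and -0.89). E2F3, a cell cycle transcription factor, had values of -1.02 in shNT, -0.66 in shTIP60, -0.43 in shCDK8 and -0.91 in HIF1A-null. TFRC, the transferrin receptor, fell in shNT (-1.35) and in HIF1A-null (-1.17), with values of -0.22 in shTIP60 and 0.42 in shCDK8.

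ISCU, an iron-sulfur cluster scaffold, and GPD1L, a glycerol-3-phosphate dehydrogenase-like enzyme, are listed miR-210 targets that were singled out after their values were seen. ISCU fell in shNT (-0.73), shTIP60 (-0.41) and shCDK8 (-0.89), and its value in HIF1A-null was 0.34 (adjusted p = 0.0567). GPD1L fell in the same lines (-0.74, -0.72 and -0.67), with 0.14 in HIF1A-null (adjusted p = 0.439). The response of HIF1A-null exceeded that of shNT by 1.07 for ISCU (adjusted p = 0.00168) and by 0.88 for GPD1L (0.00512). For EFNA3 the difference was -1.136 (adjusted p = 0.00171). Over the whole list 4 of 13 differences were called higher, 1 lower and 8 not, against 16.4% of all genes called in either direction. The differences of ISCU, GPD1L and EFNA3 kept their calls when any 1 library was left out. The ISCU call in shTIP60 was lost without normoxic library A or either hypoxic library of that line (highest adjusted p 0.199).

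RASSF7, the nearest measured gene to MIR210HG at 1.63 kb, rose with hypoxia in every line. Its log2 fold change was 1.17 ± 0.20 in shNT, 1.33 in shTIP60, 1.01 in shCDK8 and 0.70 in HIF1A-null, and the last was lost without normoxic library B or hypoxic library A of that line (highest adjusted p 0.127). LRRC56, at 10.7 kb on the same side, rose in the 3 shRNA lines (0.92, 1.03 and 0.85). IRF7, an interferon regulatory factor 44.1 kb away on the other side, rose in shNT (1.62), shCDK8 (1.38) and HIF1A-null (1.202). PHRF1, at 8.01 kb, was called in no line.

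MALAT1, the speckle-associated transcript, rose in every line, and its highest library was a hypoxic HIF1A-null one. In shNT it stood at 329.9 and 377 CPM in normoxia (354 ± 33.5 SD, n = 2) and at 803 and 680.4 CPM in hypoxia (742 ± 86.8). In shTIP60 the levels were 392 and 469 CPM (431 ± 54.7) and then 1172 and 820.5 CPM (996 ± 249). In shCDK8 they were 339 and 399 CPM (369 ± 42.6) and then 709 and 818 CPM (764 ± 77.4). The HIF1A-null libraries differed most between replicates, with 239 and 447 CPM in normoxia (343 ± 147) and 959 and 1612.6 CPM in hypoxia (1286 ± 462). No hypoxic library of any line fell to the level of a normoxic one. The group means spanned 3.75-fold, and in their order 5 of 7 neighbouring pairs overlapped.

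The hypoxia effect on MALAT1 was 1.07 ± 0.27 (log2, SE) in shNT (2.10-fold, adjusted p = 0.00512), 1.21 ± 0.27 in shTIP60 (2.31-fold, 0.00233), 1.05 ± 0.27 in shCDK8 (2.07-fold, 0.0102) and 1.91 ± 0.28 in HIF1A-null (3.75-fold, 7.92e-05). The shNT call was lost without normoxic library A (adjusted p = 0.0545). The shCDK8 call was lost without its normoxic library A (0.0680) or hypoxic library B (0.0782). The response of HIF1A-null was larger than that of shNT by 0.84 ± 0.38, which was not called (adjusted p = 0.146), but it was called without HIF1A-null normoxic library B (1.36, adjusted p = 0.0223) or hypoxic library A (1.16, 0.0423), and without the filter on low counts (0.84, 0.00188). In hypoxia MALAT1 was 1.73-fold higher in HIF1A-null than in shNT (0.79 ± 0.27, adjusted p = 0.0268). That call was lost without either hypoxic shNT library (0.0515 and 0.141), without hypoxic HIF1A-null library B (0.37, adjusted p = 0.348), and when library totals alone set the scale (0.66, adjusted p = 0.0700). None of the other 5 comparisons of MALAT1 with shNT was called. Without the filter on low counts, that in hypoxic shTIP60 was called (0.42, adjusted p = 0.0364).

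NEAT1, the paraspeckle scaffold, was higher in shTIP60 than in any other line at either oxygen level, and its response to hypoxia was not the same in every line. In shNT it stood at 356 and 481 CPM in normoxia (418 ± 88.5 SD, n = 2) and 556 and 400.1 CPM in hypoxia (478 ± 110.0), and these ranges overlapped. In shTIP60 it stood at 621 and 696 CPM (659 ± 53.0) and then 1301 and 1011 CPM (1156 ± 205), above every library of the other lines. In shCDK8 it rose from 286 and 314 CPM (299.9 ± 19.5) to 565 and 427 CPM (496 ± 97.4). The HIF1A-null line was the only one with both hypoxic libraries (328 and 298 CPM, 313 ± 20.9) below both normoxic libraries (345 and 551 CPM, 448 ± 146). The group means spanned 3.85-fold, and 4 of 7 neighbouring pairs in their order overlapped.

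NEAT1 rose with hypoxia in shTIP60 by 0.81 ± 0.23 on the log2 scale (adjusted p = 0.00992) and in shCDK8 by 0.72 ± 0.23 (0.0282). The shTIP60 call was lost without normoxic library A (0.0875) or hypoxic library A (0.111) of that line. The shCDK8 call was lost without normoxic library A (0.118), normoxic library B (0.0861) or hypoxic library A (0.226). With library totals alone both calls were also lost (0.59, adjusted p = 0.0555, and 0.56, adjusted p = 0.0886). In shNT the value was 0.19 ± 0.23 (95% interval -0.29 to 0.67, adjusted p = 0.531), and with library totals alone it was -0.01, also not called. In HIF1A-null it was -0.52 ± 0.23 (adjusted p = 0.0825), and it was called without normoxic library A of that line (-0.84, adjusted p = 0.0113). A joint test over the 4 lines called the NEAT1 responses different from one another (adjusted p = 0.0281), and leaving out any 1 of 6 libraries ended that call (0.0507 to 0.110). The difference of each line from shNT was not called (0.62 for shTIP60, 0.53 for shCDK8 and -0.71 for HIF1A-null). That of HIF1A-null was called without its normoxic library A (-1.06, adjusted p = 0.0216) and without the filter on low counts (-0.71, 0.0117).

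Against shNT at the same oxygen level, NEAT1 was 2.42-fold higher in hypoxic shTIP60 (1.27 ± 0.23, adjusted p = 0.000877) and kept that call when any 1 library was left out. In normoxia the same comparison gave 0.65 ± 0.23 (adjusted p = 0.0556), which DESeq2 called (0.0250), as did fits without the filter on low counts (0.000431), with only the groups compared (0.0053) and with the library number series as a block (0.0228). It was also called without either normoxic HIF1A-null library (0.0248 and 0.0243) or either hypoxic shNT library (0.0449 and 0.0448). In hypoxic HIF1A-null NEAT1 was 1.53-fold lower (-0.61 ± 0.23, adjusted p = 0.0408). That call was lost without hypoxic shNT library A (-0.35, adjusted p = 0.317), either hypoxic HIF1A-null library (0.0805 and 0.168) or either normoxic shTIP60 library (0.0526 and 0.0529). In shCDK8 the values were -0.48 in normoxia (adjusted p = 0.194) and 0.05 in hypoxia.

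NEAT1 and MALAT1 lie next to each other, and together they took 0.0587 to 0.235% of all counts per library. FRMD8, 9.25 kb from NEAT1 on the side away from MALAT1, fell with hypoxia in shNT (-0.77, lost without hypoxic library B, adjusted p = 0.0745) and in HIF1A-null (-1.26 ± 0.20). SLC25A45, further out at 39.1 kb, had values of 0.86 in shCDK8 and -0.74 in HIF1A-null. These calls were lost without 2 and 7 single libraries. Against shNT, SLC25A45 was higher in normoxic (0.82, adjusted p = 0.0200) and hypoxic shTIP60 (0.95, 0.00701). It was lower in hypoxic HIF1A-null (-1.86, adjusted p = 4.66e-05). FRMD8 was higher than shNT in hypoxic shTIP60 (0.88, adjusted p = 0.00560) and hypoxic shCDK8 (1.26, 0.000340). The other comparisons of these 2 genes with shNT were not called. LTBP3, a TGF-beta binding protein gene 30.5 kb beyond MALAT1, rose in shNT (0.80), shTIP60 (0.96) and shCDK8 (0.83, lost without normoxic library B, adjusted p = 0.0582).

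The mRNAs of paraspeckle and speckle proteins were counted beside NEAT1 and MALAT1. Of 12 paraspeckle and NEAT1 processing genes, 0 rose and 8 fell in shNT (median log2 fold change -0.55), 0 and 7 in shTIP60 (-0.51), 0 and 5 in shCDK8 (-0.32), and 1 and 4 in HIF1A-null (-0.19). Of all genes 20% fell in shNT, 19.8% in shTIP60, 11% in shCDK8 and 19.1% in HIF1A-null. The 5 falls in shCDK8 became 3 without its normoxic or hypoxic library A and 2 without its hypoxic library B. SFPQ, an essential paraspeckle protein, fell in all 4 lines (-1.66 ± 0.16 in shNT, -1.77, -0.78 and -1.71), from 322 ± 16.02 to 102 ± 13.7 CPM in shNT. PSPC1, its partner in the same protein family, fell by 1.69, 1.54, 0.72 and 0.98. CPSF6, a subunit of the cleavage factor that favours the short NEAT1 form, had values of -0.81, -0.94, -0.53 and -0.75, and its shCDK8 call was lost without normoxic library A or hypoxic library B (highest adjusted p 0.101).

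Of 15 nuclear speckle and SR protein genes, 1 rose and 9 fell in shNT (median -0.36), 1 and 5 in shTIP60 (-0.07), 1 and 5 in shCDK8 (-0.13), and 5 and 7 in HIF1A-null (0.09). Of all genes 20.7% rose and 20% fell in shNT, and 18.9% rose and 19.1% fell in HIF1A-null. The 9 falls in shNT became 5 without its normoxic or hypoxic library B. In HIF1A-null the 7 falls became 4 without hypoxic library A, and the 5 rises became 3 without hypoxic library B. The splicing factors SRSF3 (-1.55, -1.31, -0.97 and -1.33), SRSF7 (-1.23, -0.88, -0.80 and -0.86) and SRSF2 (-1.33, -1.18, -0.76 and -1.31) fell in shNT, shTIP60, shCDK8 and HIF1A-null. SRSF10 fell as well (-0.97, -0.86, -0.59 and -0.46), and its calls in shCDK8 and HIF1A-null were each lost without either of 2 libraries (highest adjusted p 0.120 and 0.235). SRRM2, singled out after its values were seen, had the highest mean levels of the list and went the other way. Its mean was higher in hypoxia in every line. It went from 1128 to 1613.3 CPM in shNT and from 1145 to 1588 CPM in shTIP60. In shCDK8 it went from 1059 ± 370 to 1685 ± 45.4 CPM, and in HIF1A-null from 1033 to 1697 CPM. Of the 2 genes listed for the MALAT1 3' end, ELAC2, which encodes the tRNA 3' processing endonuclease RNase Z, fell in shNT (-1.10 ± 0.19). METTL16, which binds the MALAT1 triple helix, had a value of -0.36 in shNT (adjusted p = 0.0557).

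**Figure D3:**
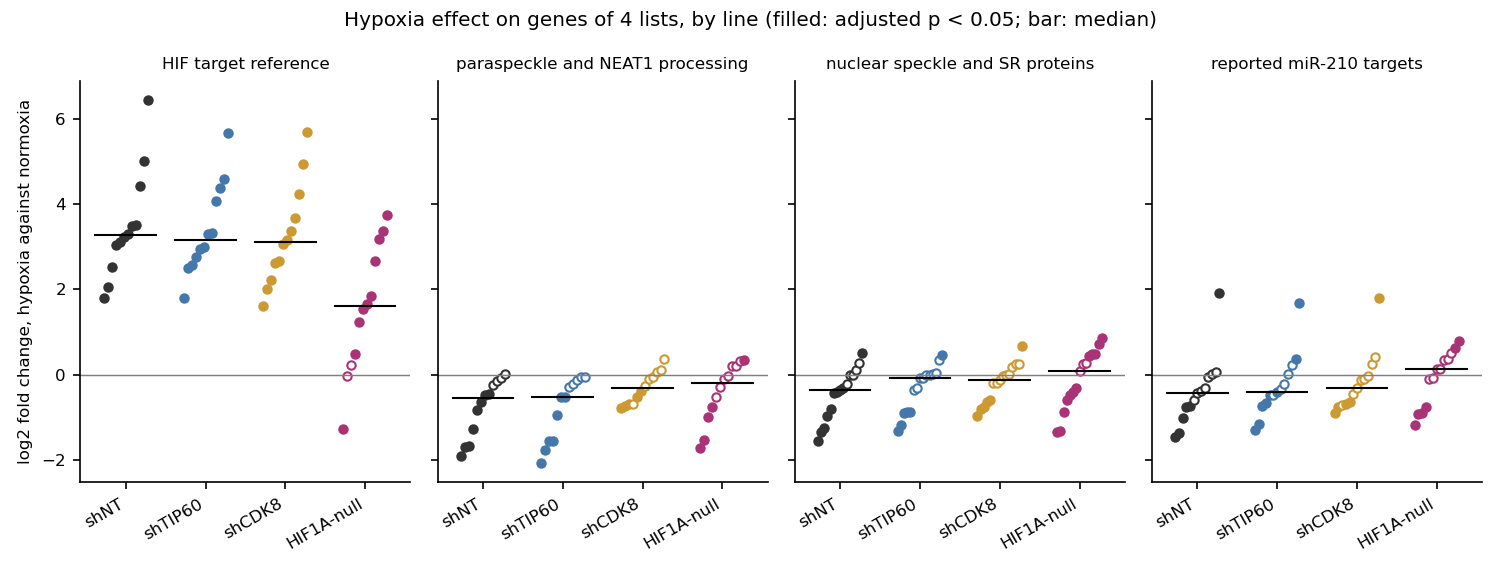
Log2 fold change of hypoxia against normoxia (vertical axis) for the tested genes of 4 lists in each line. Each point is a gene, filled points passed an adjusted p of 0.05, and black bars are list medians. The 12 HIF reference genes have medians of 3.27, 3.15 and 3.10 in the shRNA lines and 1.60 in HIF1A-null, and the paraspeckle list lies mostly below 0.

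H19, the imprinted transcript beside IGF2, rose with hypoxia in every line and had the widest span of group means of the 5. In shNT it stood at 4.46 and 3.63 CPM in normoxia (4.05 ± 0.591 SD, n = 2) and 13.4 and 12.04 CPM in hypoxia (12.7 ± 0.978). shCDK8 was close to that, with 4.55 and 3.68 CPM (4.12 ± 0.616) and then 14.6 and 12.8 CPM (13.7 ± 1.23). In shTIP60 it stood at 152 and 209.7 CPM (181 ± 40.8) and then 348 and 429 CPM (389 ± 57.0). In HIF1A-null it stood at 167 and 79.9 CPM (123 ± 61.5) and then 409 and 202 CPM (306 ± 146). Every library of shTIP60 and HIF1A-null exceeded every library of shNT and shCDK8, at either oxygen level. The highest group mean was 96.0-fold the lowest, and 5 of 7 neighbouring pairs overlapped.

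The hypoxia effect on H19 was 1.66 ± 0.35 (log2, SE) in shNT (3.16-fold, adjusted p = 0.00150), 1.10 ± 0.31 in shTIP60 (2.15-fold, 0.00986), 1.74 ± 0.35 in shCDK8 (3.34-fold, 0.00226) and 1.31 ± 0.31 in HIF1A-null (2.48-fold, 0.00364). The shTIP60 call was lost without normoxic library A (0.113) or hypoxic library B (0.0746) of that line, and the HIF1A-null call without hypoxic library A (0.0795). The joint test did not call the responses different among the lines (adjusted p = 0.659). Response differences from shNT were -0.55 in shTIP60 (95% interval -1.54 to 0.43), 0.08 in shCDK8 (-0.97 to 1.138) and -0.35 in HIF1A-null (-1.33 to 0.63).

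Against shNT, H19 was 44.8-fold higher in normoxic shTIP60 (5.49 ± 0.38, adjusted p = 6.49e-08) and 30.5-fold higher in hypoxic shTIP60 (4.93 ± 0.36, 1.15e-07). It was 30.6-fold higher in normoxic HIF1A-null (4.94 ± 0.37, 2.09e-07) and 24.0-fold higher in hypoxic HIF1A-null (4.59 ± 0.36, 1.17e-07). All 4 calls held when any 1 library was left out, with values from 3.99 to 5.70. In shCDK8 the values were 0.03 (95% interval -0.77 to 0.82) in normoxia and 0.11 (-0.59 to 0.80) in hypoxia. These comparisons share the shNT libraries, so the values of shTIP60 and HIF1A-null are not independent of each other.

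IGF2, the growth factor gene 125 kb from H19, was lower than shNT in shCDK8 and higher in HIF1A-null. Its mean was 2.20 ± 1.15 CPM in normoxic and 2.75 ± 0.202 CPM in hypoxic shNT, and 2.24 ± 0.960 and 2.996 ± 0.0629 CPM in shTIP60 (log2 differences of 0.02 and 0.12, neither called). In shCDK8 it was lower, at 0.467 ± 0.202 CPM in normoxia (-2.27, adjusted p = 0.00179) and 0.983 ± 0.206 CPM in hypoxia (-1.48, 0.00830, lost without hypoxic shCDK8 library A, 0.0895). In HIF1A-null it was higher, at 5.25 ± 0.206 CPM in normoxia (1.24, adjusted p = 0.0223) and 5.20 ± 0.694 CPM in hypoxia (0.91, 0.0404), but these calls were lost without 3 and 6 single libraries. IGF2 was called in no line with hypoxia. INS-IGF2, which overlaps IGF2, has its own row with at most 0.121 CPM as a group mean. How reads that overlap both genes were counted is not given, so IGF2 may be undercounted.

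MRPL23, a mitochondrial ribosomal protein gene 10.6 kb from H19 on the other side, had hypoxia effects of -0.58 in shNT and -0.60 in shTIP60. Each of these calls was lost without either of 2 libraries (highest adjusted p 0.119 and 0.0839). MRPL23-AS1, nearer still, stayed at or below 0.294 CPM as a group mean, the value in normoxic shTIP60. There it was called higher than shNT (adjusted p = 0.0485), whose mean of 0.0119 CPM lay below the floor of 3 counts. Against shNT, MRPL23 was higher in hypoxic HIF1A-null (0.70, adjusted p = 0.00237) and hypoxic shCDK8 (0.45, 0.0466). No other comparison of either gene with shNT was called. MIR675, inside H19, had 0 counts in all 16 libraries. How reads that overlap 2 genes were counted is not given, so this 0 does not show that the miR-675 precursor is absent. The other genes of the imprinted domain and the IGF2 axis (7 tested) gave 2 rises and 1 fall with hypoxia in shNT, 2 and 1 in shTIP60, 3 and 0 in shCDK8, and 2 and 1 in HIF1A-null. In shCDK8 24.8% of all genes were called. The 3 of 7 called in each line are near the shares of all genes in shNT (40.7%), shTIP60 (39.2%) and HIF1A-null (38%). Named after their values were seen, those of shNT were IGF2BP2, an IGF2 mRNA-binding protein (0.90 ± 0.12), IGF1R, the receptor of insulin-like growth factors (0.91 ± 0.15), and CTCF, the insulator protein of the H19 control region (-0.54 ± 0.12). In normoxic HIF1A-null against shNT, IGF2 was the only 1 of the 7 called.

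UCA1 rose with hypoxia in the 3 shRNA lines, and in HIF1A-null its oxygen groups overlapped. In shNT it stood at 88.3 and 156 CPM in normoxia (122 ± 48.1 SD, n = 2) and 307 and 399.8 CPM in hypoxia (353 ± 66.0). In shTIP60 the levels were 62.5 and 75.7 CPM (69.1 ± 9.35) and then 184 and 221 CPM (203 ± 26.1). In shCDK8 they were 42.5 and 45.5 CPM (43.99 ± 2.14) and then 88.5 and 96.3 CPM (92.4 ± 5.45). At each oxygen level the 3 lines stood in the same order, with shNT highest and shCDK8 lowest, and no library of one overlapped the next. In HIF1A-null it stood at 102 and 146 CPM (124 ± 31.2) and 119.5 and 112 CPM (116 ± 5.25), with the hypoxic libraries inside the normoxic range. The group means spanned 8.03-fold, and 2 of 7 neighbouring pairs in their order overlapped.

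The hypoxia effect on UCA1 was 1.53 ± 0.23 (log2, SE) in shNT (2.89-fold, adjusted p = 8.02e-05), 1.55 ± 0.23 in shTIP60 (2.93-fold, 8.47e-05) and 1.07 ± 0.23 in shCDK8 (2.10-fold, 0.00324). In HIF1A-null it was -0.10 ± 0.23 (95% interval -0.58 to 0.38, adjusted p = 0.745). The response of HIF1A-null was below that of shNT by 1.63 ± 0.32 (a difference of -1.63, adjusted p = 0.00322). For shTIP60 the difference was 0.02 (95% interval -0.65 to 0.70) and for shCDK8 -0.46 (-1.138 to 0.22), and neither was called.

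Against shNT in normoxia, UCA1 was 2.78-fold lower in shCDK8 (-1.48 ± 0.23, adjusted p = 0.000388) and 1.77-fold lower in shTIP60 (-0.82 ± 0.23, 0.0182), with 0.02 in HIF1A-null (95% interval -0.45 to 0.50). In hypoxia it was 3.82-fold lower in shCDK8 (-1.93 ± 0.23, 2.41e-05), 3.05-fold lower in HIF1A-null (-1.61 ± 0.23, 5.10e-05) and 1.74-fold lower in shTIP60 (-0.80 ± 0.23, 0.0184). The shTIP60 calls rested on single libraries. The normoxic one was lost without shNT library B (-0.36, adjusted p = 0.352), shTIP60 library A (0.173) or B (0.0503), and the hypoxic one without shNT library B (0.170), shTIP60 library A (0.160) or B (0.0516). The shCDK8 and HIF1A-null calls held when any 1 library was left out.

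CYP4F11, a fatty acid hydroxylase gene 76.0 kb from UCA1, was also lower than shNT in shCDK8 and in hypoxic shTIP60. It stood at 29.9 ± 2.03 CPM in normoxic and 56.6 ± 2.19 CPM in hypoxic shNT, but at 0.601 ± 0.191 and 0.636 ± 0.0587 CPM in shCDK8 (-5.60 ± 0.23, adjusted p = 7.71e-10, and -6.47 ± 0.22, 6.82e-11). In shTIP60 CYP4F11 was lower in hypoxia (-0.99, adjusted p = 0.000344), with -0.40 in normoxia (adjusted p = 0.0927). CYP4F2, between UCA1 and CYP4F11 at 41.7 kb, was also lower in shCDK8 (-2.54, adjusted p = 0.00126, and -1.92, 0.00524, the second lost without hypoxic shCDK8 library B, 0.0526). With hypoxia CYP4F11 rose in shNT (0.92 ± 0.16) and in HIF1A-null (0.78 ± 0.16, 65.2 ± 10.5 against 37.9 ± 2.62 CPM), while UCA1 did not pass the test in HIF1A-null. CYP4F genes resemble one another in sequence, so reads may have been placed on another copy or left out. OR10H1, an olfactory receptor gene 12.5 kb away on the other side, was called in no line with hypoxia and in no comparison with shNT, and OR10H5 was not tested.

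**Figure D4:**
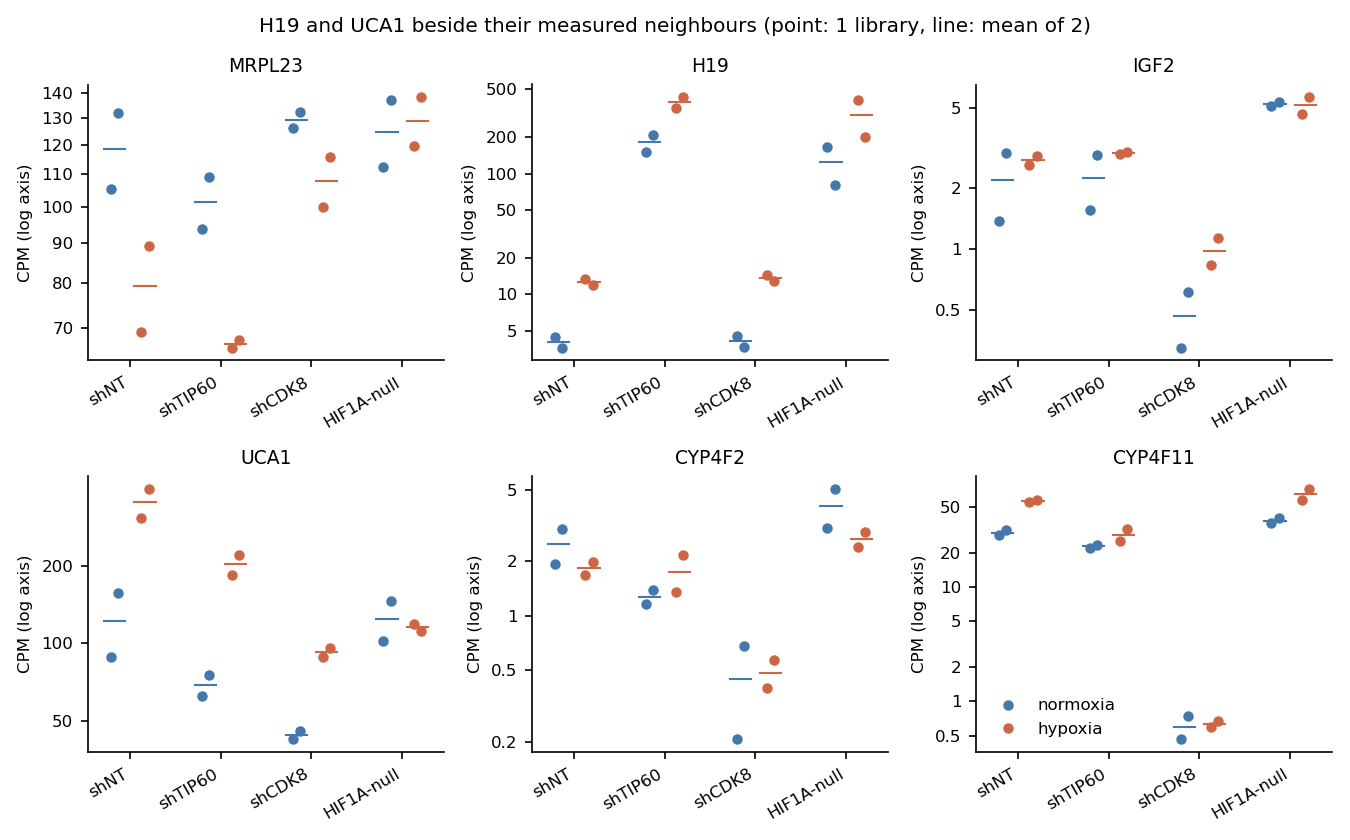
Levels in CPM (vertical axis, logarithmic) of H19 and UCA1 and of measured neighbours by line, with normoxia in blue and hypoxia in orange. Points are single libraries and horizontal lines are means of 2. H19 is at 79.9 CPM or more in shTIP60 and HIF1A-null while IGF2 stays between 2.20 and 5.25 CPM as a group mean in shNT, shTIP60 and HIF1A-null, and CYP4F11 lies below 1 CPM in shCDK8.

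The second question was how the lines differed from shNT at the same oxygen level. In normoxia 2 of the 5 RNAs were called in shTIP60 (18.4% of all genes), 1 in shCDK8 (13.1%) and 1 in HIF1A-null (11.7%). In hypoxia 3 were called in shTIP60 (21.8%), 1 in shCDK8 (27.9%) and all 5 in HIF1A-null (41.1%). The 5 calls in hypoxic HIF1A-null were MIR210HG, NEAT1 and UCA1 lower and MALAT1 and H19 higher. The 6 comparisons share shNT libraries within an oxygen level.

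**Figure D5:**
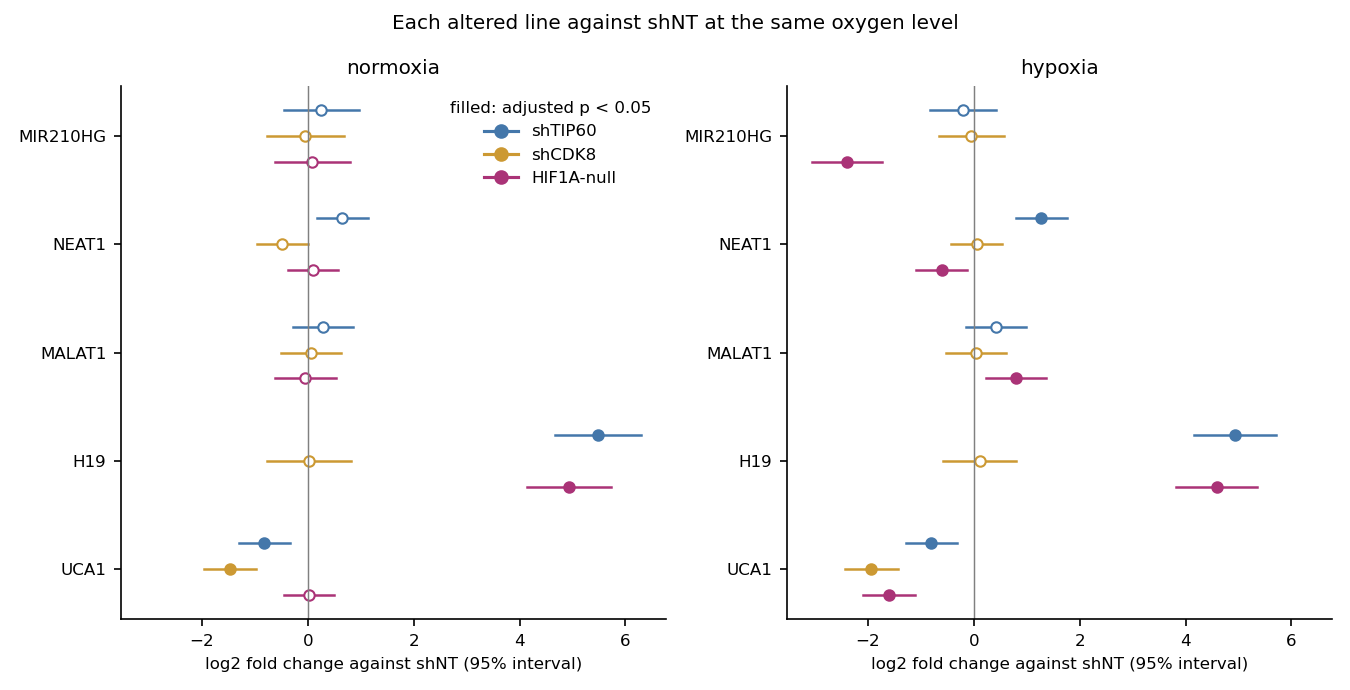
Log2 fold change of each altered line against shNT (horizontal axis) in normoxia (left) and hypoxia (right), with 95% intervals from edgeR's quasi-likelihood fit. Filled points passed an adjusted p of 0.05. H19 lies between 4.59 and 5.49 in shTIP60 and HIF1A-null, and UCA1 in shCDK8 lies at -1.48 and -1.93.

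The third question was whether an alteration changed the response to hypoxia. The response of HIF1A-null differed from that of shNT for 2 of the 5, MIR210HG and UCA1 (16.4% of all genes called). For shTIP60 and shCDK8 edgeR called 0 of 5 (0.0322% and 0.0387% of all genes), 0 had an unadjusted p under 0.05, and DESeq2 called 0. With the library number series as a block 72 and 532 of all genes were called for these differences, against 5 and 6 without it, and again 0 of the 5. Over the 4 lines jointly, 3 of 5 were called different, MIR210HG (adjusted p = 0.00417), UCA1 (0.00674) and NEAT1 (0.0281), against 14.2% of all genes. MALAT1 (0.286) and H19 (0.659) were not called, but without the filter on low counts MALAT1 was (0.00155). The mean response over the lines was called higher for all 5 (30.4% of all genes higher and 61.8% in either direction). It was 2.98 for MIR210HG, 1.45 for H19, 1.31 for MALAT1, 1.01 for UCA1 and 0.30 for NEAT1 (adjusted p = 0.0286), and with library totals alone the NEAT1 value was 0.08 (adjusted p = 0.550). Leaving out any 1 of 8 libraries also ended the NEAT1 call.

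An exact two-sided permutation of oxygen labels within lines was run on log2(CPM + 0.5). The mean difference was 2.87 for MIR210HG, 1.31 for MALAT1 and 1.40 for H19, each with a p of 0.00154, the smallest this permutation can give. For UCA1 it was 1.02 (exact permutation p = 0.00617). For NEAT1 it was 0.31 (exact permutation p = 0.148), and without the HIF1A-null line 0.57 (exact permutation p = 0.0185).

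For reference, 12 well-known HIF target genes rose in all 3 shRNA lines, 12 of 12 in each (median log2 fold change 3.27 in shNT, 3.15 in shTIP60 and 3.10 in shCDK8). Of all genes 20.7% rose in shNT, 19.4% in shTIP60, 13.8% in shCDK8 and 18.9% in HIF1A-null, where 19.1% fell. These genes were listed as known HIF targets, with earlier results of these data known, so their counts serve as a reference only. In HIF1A-null 9 rose and 1 fell (median 1.60), and the 1 that fell, named for that reason, was EGLN3, an oxygen-sensing hydroxylase (-1.26 there against 3.04 in shNT). MIR210HG went from 3.72 to 1.24 and UCA1 from 1.53 to -0.10 between these lines, and both differences were called. MALAT1 went from 1.07 to 1.91, H19 from 1.66 to 1.31 and NEAT1 from 0.19 to -0.52, and none of these 3 differences was called.

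Other long noncoding RNAs moved in both directions. Of 25 tested, 10 rose and 2 fell in shNT, 7 and 1 in shTIP60, 6 and 2 in shCDK8, and 13 and 2 in HIF1A-null. Of all genes 20.7% rose and 20% fell in shNT, 19.4% and 19.8% in shTIP60, 13.8% and 11% in shCDK8, and 18.9% and 19.1% in HIF1A-null. The 10 rises in shNT became 6 without its hypoxic library B, and the 13 in HIF1A-null became 7 without its normoxic library A or hypoxic library B. HIF1A-AS2, antisense to HIF1A, was at 0 counts in both normoxic libraries of shNT and at 1.40 ± 0.221 CPM in hypoxia. LINC00511 rose by 1.78 ± 0.22 in shNT. TINCR (listed as PLAC2) rose by 1.37 ± 0.20, and CYTOR (listed as LINC00152) by 1.46 ± 0.29. KCNQ1OT1, an imprinted transcript of the same chromosome arm as H19, was singled out after its values were seen. It rose in every line (0.99, 1.10, 1.00 and 3.06), from 11.3 ± 0.185 to 94.8 ± 29.2 CPM in HIF1A-null, where its response exceeded that of shNT by 2.08 ± 0.31 (adjusted p = 0.000542). Of 6 other microRNA host transcripts, 0 rose and 3 fell in shNT, 0 and 2 in shTIP60, 1 and 1 in shCDK8, and 0 and 4 in HIF1A-null, beside the same shares of all genes. The falls became 1 in shNT without its normoxic library A or hypoxic library B, and 0 in shTIP60 without its library A of either oxygen level. In HIF1A-null they became 2 without normoxic library B and 1 without hypoxic library B. MIR17HG, host of the miR-17 cluster, fell by 1.88 ± 0.22 in shNT.

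The genes whose log2 levels were most like those of each RNA over the 16 libraries were sought among 11264 genes of at least 5 CPM on average. They were QSOX1, TNIP1 and HK1 for MIR210HG (Pearson r 0.986, 0.981 and 0.981), and MAP3K12, OPRL1 and C11orf86 for NEAT1 (0.951, 0.925 and 0.913). For MALAT1 they were ARIH1, ZCCHC6 and ATP2C1 (0.95, 0.95 and 0.943), for H19 SYNGR3, UPK3B and RABAC1 (0.956, 0.95 and 0.944), and for UCA1 PRSS16, CAPN12 and USP28 (0.943, 0.942 and 0.939). Among the 5 RNAs the highest r was 0.655, between MIR210HG and MALAT1, and the lowest 0.119, between MIR210HG and H19. The libraries share lines and oxygen levels, so these values describe the pattern over groups and carry no test.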

How the data were processed

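Poly(A) RNA of 16 HCT116 libraries was sequenced on an Ion Torrent Proton with an Ion Total RNAseq v2 kit (labels' protocols). The deposited table holds raw read counts per gene symbol, and its whole numbers show no scaling by the authors. The submitters' processing notes name GSNAP (2013-10-28), HTSeq (0.5.4p5), DESeq (1.14.0), R (3.0.3) and build hg19. The annotation, strand setting and read filters are not given in the sources used here.

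The filterByExpr rule (minimum count 10, minimum total 15) kept 65.6% of genes. All 16 libraries entered 1 robust quasi-likelihood fit with TMM factors and a coefficient for each of 8 groups, in edgeR 4.0.16 (R 4.3.3, limma 3.58.1) with 8 residual degrees of freedom. Each of 15 comparisons used two-sided tests with Benjamini-Hochberg adjustment over every tested gene, at 0.05. The code was tested on simulated data. Intervals are 95%. The floor of 3 counts describes counting error alone, because no molecular identifiers mark duplicate reads. Alternatives were DESeq2 1.42.0, other scalings and filters, fits of the compared groups alone, a 1.5-fold threshold and omission of each library.

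The 5 genes and all lists were chosen with earlier results of these data known. Named genes were the 5, the targeted genes, up to 4 members per list with the smallest adjusted p in shNT (or, for the H19 list, in normoxic HIF1A-null against shNT), the 3 most alike genes of each and the 2 nearest measured genes on each side. Some genes that this rule names are not reported here. Promoter and microRNA sequences came from RefSeq.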

Additional observations from a re-analysis of the deposited data

Results flagged for a closer look

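Responses to hypoxia differed between lines for 3 of the 5 RNAs, and these differences were tested directly. The response of HIF1A-null differed from that of shNT by -2.47 on the log2 scale for MIR210HG and by -1.63 for UCA1. The joint test of a difference among the 4 lines gave an adjusted p of 0.00417 for MIR210HG, 0.00674 for UCA1 and 0.0281 for NEAT1 in edgeR's quasi-likelihood test. For NEAT1 the responses ran from -0.52 in HIF1A-null to 0.81 in shTIP60. Its joint call was lost when single libraries were left out. In the main fit no line's NEAT1 response was called different from that of shNT. Groups of 2 libraries are too small for a search for outlying samples.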

How the results depend on the processing

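No paired analysis was possible because the replicate numbers of the labels are not in the column names of the count table. This reason concerns pairing by replicate number only. The column names do hold library numbers in 2 series, with 1 library of each group in either. A fit blocked on these series was possible, but the main fit held no such block. Whether a series marks a shared batch is not given. An added alternative, chosen after the column names were seen, took the library number series as a block, and changed among the hypoxia effects only NEAT1 in HIF1A-null, which became called (-0.52, adjusted p = 0.0457), and against shNT only NEAT1 in normoxic shTIP60 (0.65, 0.0228). With that block the genes called rose from 5 to 72 and from 6 to 532 for the response differences of shTIP60 and shCDK8, from 2553 to 4187 for that of HIF1A-null and from 2205 to 4716 in the joint test. In normoxia against shNT they rose from 2857 to 4287 in shTIP60, 2028 to 3264 in shCDK8 and 1819 to 2959 in HIF1A-null. Without the filter on low counts the hypoxia effect on NEAT1 in HIF1A-null was also called (-0.52, 0.00372), as it was with library totals alone (-0.80, 0.0131). Against a 1.5-fold change the hypoxia calls lost were MALAT1 in shNT (1.07, 0.0855), NEAT1 (0.81) and H19 (1.10) in shTIP60, NEAT1 (0.72), MALAT1 (1.05) and UCA1 (1.07) in shCDK8, and MIR210HG in HIF1A-null (1.24). Also lost were UCA1 in normoxic (-0.82, 0.455) and hypoxic (-0.80, 0.464) shTIP60 against shNT, NEAT1 (-0.61, 0.615) and MALAT1 (0.79, 0.321) in hypoxic HIF1A-null against shNT, and NEAT1 in the mean response (0.30). Counts of the 5 called were then 3 in shTIP60, 2 in shCDK8, 1 in normoxic shTIP60 against shNT and 3 in hypoxic HIF1A-null against shNT. With library totals alone NEAT1 gave 0.59 in shTIP60 and 0.56 in shCDK8, neither called. No filter raised the count to 2 in normoxic shCDK8 against shNT and to 4 for the response difference of HIF1A-null. The permutation value of NEAT1 without HIF1A-null was 0.57.

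Leaving out 1 library gave values of 0.94 to 1.18 for MALAT1 in shNT, against 1.07 with all libraries. In shTIP60 it gave 3 to 5 called, NEAT1 0.62 to 0.98 and H19 0.89 to 1.35. In shCDK8 it gave 3 to 5 called, NEAT1 0.51 to 0.91 and MALAT1 0.93 to 1.17. In HIF1A-null it gave 1 to 4 called, MIR210HG 0.72 to 1.63, NEAT1 -0.84 to -0.14 and H19 0.71 to 1.91. In normoxic shTIP60 against shNT 1 to 3 were called, and in hypoxic HIF1A-null against shNT 3 to 5. A group left with 1 library is assumed to vary like the others.

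Over all settings no called value changed sign. Of 1675 values of single RNAs, 57 had the other sign where neither value was called. Library totals moved the median of all genes by -0.20 in shNT, -0.23 in shTIP60, -0.16 in shCDK8 and -0.28 in HIF1A-null, and the split of called genes became 2116 higher and 4604 lower in shNT (3208 and 3103 with TMM), 1899 and 4859 in shTIP60 (3007 and 3076), 1446 and 3084 in shCDK8 (2135 and 1713) and 1485 and 5141 in HIF1A-null (2935 and 2958). In hypoxic HIF1A-null against shNT it became 2317 and 4008 (3157 and 3221), and for the mean response 2915 and 7197 (4725 and 4867). The cause of these changes was not tested. Under the settings other than leaving out a library, the paraspeckle genes that fell numbered 4 to 9 in shNT, 5 to 9 in shTIP60, 0 to 7 in shCDK8 and 3 to 7 in HIF1A-null. Leaving out 1 library gave 6 to 8, 7, 2 to 6 and 4 to 6. Of the lists' hypoxia counts, those of 1 or 2 moved by at most 2 when 1 library was left out. The mean response has no value from only the groups compared, and the joint test none from that fit or against 1.5-fold. With 2 libraries per group, 1 library can decide a call.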
